A study of Mus musculus with 2 samples.

Results

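The AP-1 and Egr immediate early factors are transcription factors whose genes are switched on within a short time of a stimulus and whose messenger RNAs are short-lived. They were taken as the 10 genes Fos, Fosb, Fosl2, Jun, Junb, Jund, Atf3, Egr1, Egr2 and Egr3, matched by the gene name printed in the scanner files, out of 27467 named genes on the array. The 10 genes had 11 probes on 20 spots. The first 7 encode basic leucine zipper proteins. Fos family proteins bind DNA only as dimers with a partner, usually a Jun protein, and these dimers make up AP-1. Atf3 is a stress-responsive zipper protein that pairs with Jun proteins among others. The Egr proteins are zinc finger factors that bind GC-rich sites. In skeletal muscle, genes of both groups are known to respond to contraction, stretch, injury and the handling of tissue.

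Tissue came from the tibialis anterior, the fast-twitch muscle at the front of the shin, of male adult C57BL/6 mice. There were 2 arrays: 1 control sample, whose genotype the labels give only as control, and 1 sample transgenic for activated Notch2 (N2ICD, the intracellular part of the receptor, in a line labelled N2ICD-mTG). The labels name neither the promoter that drives the transgene nor the number of animals behind each sample. The series title links Notch2 made by muscle fibres with muscle mass and fibre type, and the arrays compare transcripts between these muscles. With 1 array per group no difference has a replicate check, so no test was made and no p-value is given, and genotype cannot be told apart from animal, dissection or array.

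Both arrays lay on 1 slide and were read in 1 scan, per the file headers. Feature Extraction called 24916 of the 59305 non-control spots well above background in control and 24982 in N2ICD. The number of arrays limits the precision. As a check of the labels, the Notch2 probe at transcript position 7448 had a signal of 6.01 in control, not well above background, and 221 in N2ICD, while the probe at position 10129 had 189 and 179. All 8 skeletal muscle fibre markers examined, among them Ckm and Myh4, were measured on both arrays.

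The sequences just upstream of the genes are shown first because several of the genes were higher together and because their promoters are known for a few short control elements. RefSeq windows on GRCm38.p6 were found for 8 of the 10 genes, all but Egr1 and Egr3. For 6 of them the last 150 bases before the annotated start are printed 5′ to 3′ on the gene's strand, and capitals mark every match to a motif searched. Egr2 has 5 listed starts, and the window of the third is shown, since the last 3 starts lie close together and share it.

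Fos, chr12:85473740-85473889 (plus strand):
Fos: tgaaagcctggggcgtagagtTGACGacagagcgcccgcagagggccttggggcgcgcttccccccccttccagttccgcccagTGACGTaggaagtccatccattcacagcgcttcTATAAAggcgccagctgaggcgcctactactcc
Atf3, chr1:191183334-191183483 (minus strand):
Atf3: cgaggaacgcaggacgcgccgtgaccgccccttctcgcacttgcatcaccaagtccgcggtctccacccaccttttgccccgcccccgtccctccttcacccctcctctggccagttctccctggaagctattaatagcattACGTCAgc
Egr2, chr10:67537719-67537868 (plus strand):
Egr2: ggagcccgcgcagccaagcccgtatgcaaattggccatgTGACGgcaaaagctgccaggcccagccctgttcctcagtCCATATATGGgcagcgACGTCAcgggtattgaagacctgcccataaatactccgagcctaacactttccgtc
Fosb, chr7:19310046-19310195 (minus strand):
Fosb: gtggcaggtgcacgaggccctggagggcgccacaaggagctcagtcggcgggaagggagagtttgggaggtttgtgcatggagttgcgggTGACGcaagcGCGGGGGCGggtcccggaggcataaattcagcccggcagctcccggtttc
Jun, chr4:95052223-95052372 (minus strand):
Jun: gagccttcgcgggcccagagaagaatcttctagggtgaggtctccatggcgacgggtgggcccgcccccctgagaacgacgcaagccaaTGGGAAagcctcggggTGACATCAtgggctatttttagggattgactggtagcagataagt
Fosl2, chr5:32136322-32136471 (plus strand):
Fosl2: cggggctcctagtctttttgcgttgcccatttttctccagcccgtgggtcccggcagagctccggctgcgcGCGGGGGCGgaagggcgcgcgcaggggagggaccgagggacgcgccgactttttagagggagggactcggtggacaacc

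The motifs were searched on both strands in the 250 bases before each start. The cAMP response element (CRE), which CREB and Atf proteins bind, was searched as its core TGACGT, and more loosely as TGACG, which every TGACGT match also holds. TGACGT stood before 3 of the 8 genes, Fos, Atf3 and Egr2, and before 7.29% of all 27025 genes in the table. In Fos it began 66 bases before the start, upstream of a TATAAA match that began at 33 bases. In Atf3 it lay from 8 to 3 bases before the start, and in Egr2 from 56 to 51. TGACG was present before 5 of the 8 genes, with Fosb and Junb added, against 19.8% of all genes. The full CRE palindrome TGACGTCA and the AP-1 site TGANTCA were found before none of the 8, and before 1.77% and 7.82% of all genes.

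Of the 8 genes, Egr2 alone had a CArG box, the 10-base element bound by serum response factor (Srf), in the bases searched. It lay from 72 to 63 bases before the start shown, against 1.62% of all genes with a match. Sequence farther upstream was not searched, and Egr1 and Egr3 had no window. A second Egr2 start in the table had another CArG match at the same distance. The Egr site GCGNGGGCG lay from 50 to 42 bases before Fosb and from 79 to 71 before Fosl2, against 5.33% of all genes. TGACATCA, a CRE-like variant known from the promoter of Jun itself, lay from 45 to 38 bases before Jun and stands before 3.41% of all genes. TGGGAA, the core letters bound by Rbpj, the DNA-binding partner of Notch, stood before Jun at 61 to 56 bases and before Jund at 187 to 182, against 24.1% of all genes. It was not among the letters of the 250 bases before Fos, Fosb, Fosl2, Junb, Atf3 or any Egr2 start. Whether Notch acts on any of these genes through Rbpj was not tested. TATAAA was found before 1 of the 8 genes, against 14.3% of all genes. A match is a description of letters and not a binding site shown by these data.

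**Figure D1:**
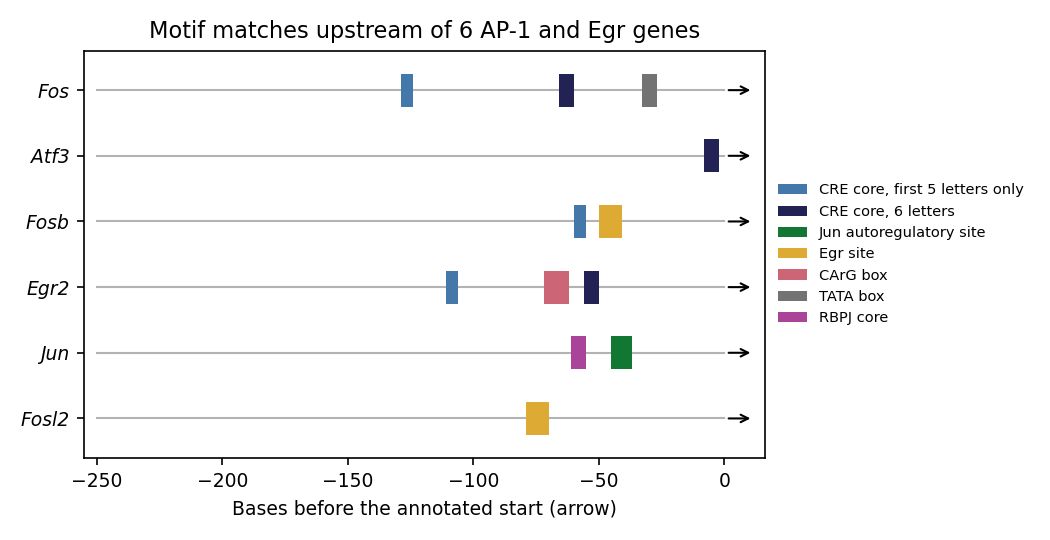
Motif matches in the 250 bases before the annotated start of 6 genes (x axis, bases before the start; arrows mark the start and the direction of transcription; coloured boxes are matches on either strand). Fos, Atf3 and Egr2 hold the 6-letter CRE core, Fosb the first 5 letters of it, and Jun and Fosl2 neither.

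In both samples 8 of the 10 genes stood well above background. Of these 8, 5 were at least 2-fold higher in N2ICD than in control, while 3 lay between and 0 were 2-fold lower. Among all 13663 measured genes, 1.42% reached 2-fold upwards and 0.893% downwards. At least 4-fold higher were 3 of the 8, Atf3, Fos and Egr1, against 0.146% of all genes. With normexp background correction, which starts from the mean spot signal and adds an offset of 50, these 3 fell short of 4-fold, at 3.77-fold for Atf3, 2.96-fold for Fos and 3.22-fold for Egr1. At least 1.5-fold higher were 6 of the 8, with Jun added, against 5.08% of all genes. The median log2 difference of the 8 was 1.16, and that of all genes 0.01. Differences are log2 values, N2ICD minus control, after the 75th percentile of each array was subtracted. Their error is given as the SD of the difference over repeat spots of a probe at a like signal level, from 0.23 in the dimmest to 0.05 in the brightest of 4 groups of probes, which covers spot noise and not the spread between animals. Each gene rests on 1 probe, and except for Fos on 1 spot per array.

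Among the Fos family, Fos itself (NM_010234, mm9, chromosome 12, 86817900 to 86817959, position 1773 of the transcript) was printed 10 times. Its 10 spots had signals from 63.5 to 79.6, median 68.8, on the control array and from 372 to 419, median 398, on the N2ICD array. Every N2ICD spot was above every control spot, and the scatter within an array was small beside the gap. The log2 difference was 2.34 ± 0.12 (SD over 10 spots), a 5.07-fold higher level, and single spots ran from 2.20 to 2.48. Fos stood at rank 10 from the highest of 13663 genes.

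Fosb (NM_008036, chromosome 7, 19888168 to 19888227, position 3593), a close relative of Fos that also forms AP-1 with Jun proteins, had a signal of 60.7 ± 8.90 in control and 167 ± 18.1 in N2ICD, where the error is that reported by Feature Extraction for the spot. It was 2.44-fold higher, a log2 difference of 1.29 with a spot noise SD of 0.23, at rank 90. Fosl2 (NM_008037, chromosome 5, 32460076 to 32460135, position 5726), the Fra-2 protein, which unlike Fos lacks a strong activation domain, had signals of 454 ± 45.8 and 565 ± 56.9. Its log2 difference of 0.14 lies within 2 SD of the spot noise of 0.08, so Fosl2 did not follow Fos and Fosb past 2-fold. The other Fosl2 probe, at position 738, was in neither sample well above background, with signals of 6.58 and 6.85.

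Among the Jun family, which can form AP-1 alone or with Fos proteins, Jun (NM_010591, chromosome 4, 94716928 to 94716987, position 1926) read 7293 ± 729 in control and 12924 ± 1292 in N2ICD. Jun was 1.57-fold higher, a log2 difference of 0.65 with a spot noise SD of 0.05. The difference is many times the spot noise but under 2-fold, and Jun ranked 541. Jund (NM_010592, chromosome 8, 73224436 to 73224495, position 2798), the Jun protein found in most resting cells, had 3311 ± 331 and 3711 ± 371. Its log2 difference of -0.01 was below the spot noise SD of 0.05, so no difference from the typical gene was seen for Jund. Junb (NM_008416, chromosome 8, 87501881 to 87501940, position 707) did not stand well above background in either sample, with signals of 9.92 ± 5.15 and 19.9 ± 5.71. The lowest signal called well above background was 25.4 in control and 27.1 in N2ICD. No fold is given for Junb.

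Atf3 (NM_007498, chromosome 1, 192994547 to 192994606, position 1545) had the largest difference of the 8, with 122 ± 13.7 in control against 736 ± 73.9 in N2ICD. Atf3 was 5.35-fold higher, a log2 difference of 2.42 with a spot noise SD of 0.12, and stood at rank 9 of 13663 genes, next to Fos.

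Of the Egr family, Egr1 (NM_007913, chromosome 18, 35024395 to 35024454, position 2856), the best known member and an early response gene in many cell types, read 139 ± 15.4 in control and 706 ± 70.9 in N2ICD. Egr1 was 4.50-fold higher, a log2 difference of 2.17 with a spot noise SD of 0.12, at rank 17. Egr2 (NM_010118, chromosome 10, 67004798 to 67004857, position 2826), known as Krox20 and required for myelination in Schwann cells, had 33.6 ± 6.88 and 77.7 ± 10.03. It was 2.05-fold higher, a log2 difference of 1.04 with a spot noise SD of 0.23, so its place above or below 2-fold is within the noise. Egr2 was the dimmest of the measured probes, close to the limit of detection in control. Egr3 (NM_018781, chromosome 14, 70479222 to 70479281, position 673), which is needed to form muscle spindles, did not stand well above background in either sample, with signals of 6.37 and 6.63. Each of the 11 probes covers 60 bases of the named RefSeq transcript in 1 unbroken genomic stretch. Whether a probe lies in coding or untranslated sequence was not examined.

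**Figure D2:**
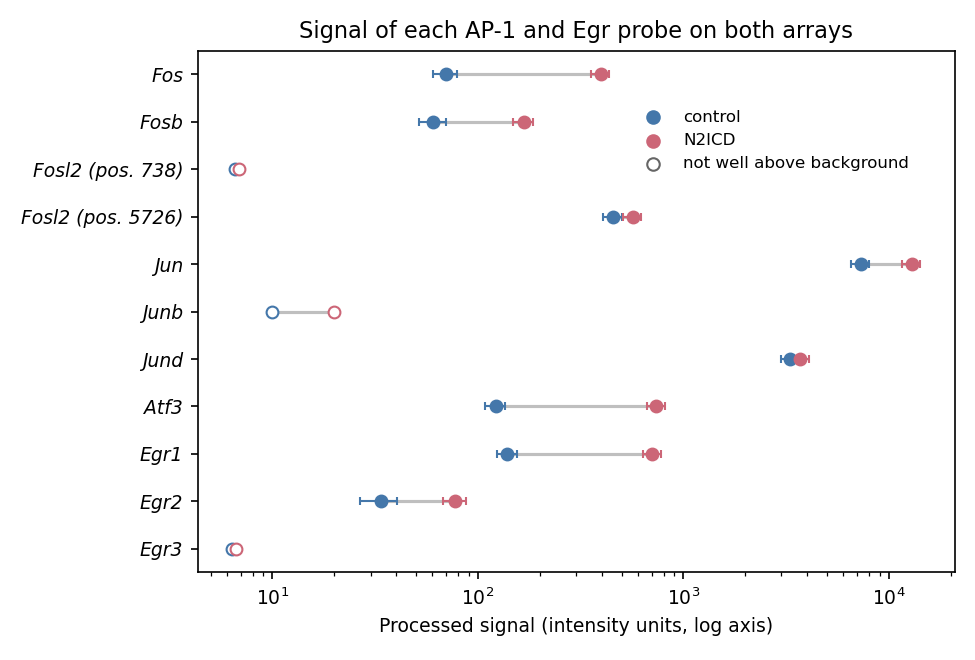
Processed signal of each of the 11 probes on the control and the N2ICD array (x axis, log scale; error bars are the spot error from Feature Extraction, for Fos its mean over 10 spots; open circles did not stand well above background in either sample). Signals of different probes are not comparable with each other. The points of Fos, Atf3 and Egr1 lie widest apart, those of Jund and the brighter Fosl2 probe nearly meet, and Junb and Egr3 sit below the level of detection.

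The 8 differences fell into an order with few clear steps. Atf3, Fos and Egr1 lay within 0.25 of each other, and each neighbour in the order differed by no more than 1 combined spot noise SD of 0.17. From Egr1 down to Fosb the step was 0.88, against a combined SD of 0.26. Fosb and Egr2 differed by 0.25 and their combined SD was 0.33, so they were not separated. Egr2 stood 0.38 above Jun (combined SD 0.24). Jun stood 0.51 above Fosl2, a step of over 5 combined SDs of 0.09, and Fosl2 stood 0.15 above Jund.

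**Figure D3:**
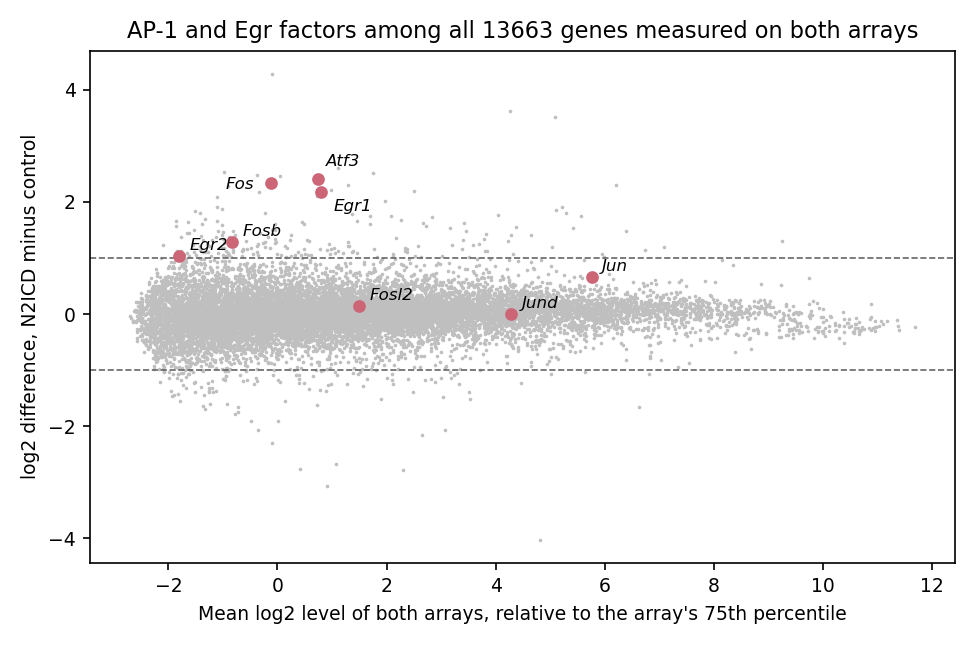
Log2 difference, N2ICD minus control, against mean log2 level for all 13663 genes measured on both arrays (grey), with the 8 AP-1 and Egr factors in red and dashed lines at 2-fold. Atf3, Fos and Egr1 lie at the upper edge of the cloud between differences of 2.17 and 2.42, and Egr2 and Fosb lie where dim genes scatter most.

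Dim genes scatter more widely, so the background was also taken at a like level. With the genes in 4 equal groups by level, 2.08% of the dimmest group, which holds Fosb and Egr2, were at least 2-fold higher. The share was 1.58% in the next group, with Fos, Atf3 and Egr1, 1.02% in the one with Fosl2 and 0.995% in the brightest, with Jun and Jund. Another background correction lowered the differences of Fos, Fosb, Egr1, Egr2 and Atf3. Before any background was removed, the mean signal of the Egr2 spot was 126 in control and 169.9 in N2ICD, and that of the Fosb spot 140.1 and 239.9. With normexp correction 3 factors passed 2-fold in place of 5: Atf3 at 1.91, Egr1 at 1.69 and Fos at 1.57. Fosb then had 0.66 and Egr2 0.36. A scale set by 7 spike-in probes raised every gene by 0.52 and put 7.75% of all genes at least 2-fold higher. On it Jun was also past 2-fold at 1.18, Fosl2 had 0.67 and Jund 0.51. On that scale 98.0% of all genes past 2-fold were higher, against 61.4% on the main scale. In the authors' deposited table Atf3 is 5.41-fold, Fos 5.12-fold, Egr1 4.55-fold, Fosb 2.47-fold and Egr2 2.07-fold up, and Junb and Egr3 are not listed.

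**Figure D4:**
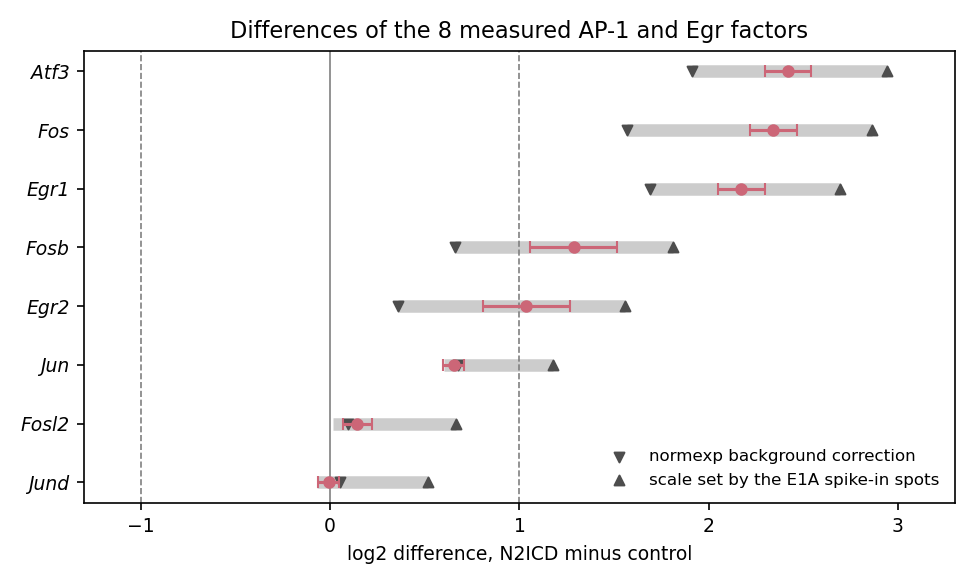
Log2 difference, N2ICD minus control, of the 8 measured factors (red points; error bars are 1 SD of spot noise; grey bars span the main value and all 10 alternatives; triangles mark 2 of these). Atf3, Fos and Egr1 stayed past 2-fold (dashed line at 1) under every alternative plotted, Fosb and Egr2 crossed below it with normexp correction, and Jun crossed above it on the spike-in scale.

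Other immediate early genes, from a list of 28, lay mostly above the typical gene. Of 23 measured, 17 lay above 0 and 6 below, and 2 reached 2-fold upwards and 0 downwards. Among all measured genes 50.7% lay above 0, the share to set beside such counts here and in the lists below. The median of the 23 was 0.49, or 0.29 with normexp correction. Ccn1 (Cyr61), a secreted matrix protein and early response gene, had signals of 649.5 and 2163 and was 2.96-fold higher. Csrnp1, a nuclear protein induced by several signals, had 295 and 717 and was 2.16-fold higher, or 0.96 on the log2 scale with normexp. Ppp1r15a, which helps to end the stress-induced block of translation, had a log2 difference of 0.99, or 0.92 with normexp. The kinase gene Plk3, dim at signals of 37.1 and 78.8, had 0.92, or 0.33 with normexp. Zfp36, whose protein speeds the decay of short-lived messages, had signals of 28.9 and 54.9, of which N2ICD alone was well above background. Its scaled ratio was 1.68-fold, the observed value of a dim spot and not a lower bound. Chosen after their values were seen, Klf10 (0.90) and the antiproliferative gene Btg2 (0.84) were close to 2-fold. Several classical early genes did not share this, also chosen after their values were seen: the nuclear receptor gene Nr4a1 had -0.26, the MAP kinase phosphatase gene Dusp1 -0.10 and Arc -0.68. On the spike-in scale these 3 were shifted up by 0.52 like all genes, and with normexp Arc had -0.34. Nr4a3, Ier2, Nfkbiz and Ptgs2 did not stand well above background in either sample.

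Other zipper proteins that pair within AP-1 or near it showed no common direction. Of 12 listed, 9 were measured, 5 lay above 0 and 4 below, none passed 2-fold, and the median of 0.15 lay between -0.03 and 0.67 over the settings. The small Maf proteins, which lack an activation domain, had the highest values. Maff had signals of 108 and 221 and a log2 difference of 0.87, or 0.56 with normexp. Mafk had 0.51 and, named after its value was seen, Mafg 0.29. Batf2 had -0.61. Batf3 had signals of 31.6 and 9.28, of which control alone was well above background, so it was at least 1.31-fold lower in N2ICD, and Fosl1 and Batf did not stand well above background in either sample. Nab1 and Nab2, whose proteins bind and restrain Egr proteins, had 0.60 and 0.05. Nab1 was dim, at signals of 53.1 and 90.9, and had 0.30 with normexp. Egr4 and Wt1 were not detected well above background.

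Genes upstream of the factors lay near the typical gene or below it. On the spike-in scale the medians of both lists were positive, but still below the median of all genes there, 0.53. The 12 measured genes of the Srf, ternary complex and CREB group had a median of -0.09 (0.43 on the spike-in scale), with 8 below 0 and 0 past 2-fold either way. Mrtfa, a coactivator of Srf, had -0.50, the CREB coactivator gene Crtc1 -0.36, the ternary complex factor gene Elk4 -0.26 and Crem, an early cAMP-responsive gene, 0.29. The Elk4 value is a mean over 3 probes that ran from -0.52 to -0.01. Srf itself, named after its value was seen, had -0.10. Of 15 measured MAP kinase genes 12 lay below 0, at a median of -0.15 (0.37 on the spike-in scale). Mapk10, which encodes the JNK3 kinase, had signals of 107 and 51.5 and was 2.35-fold lower, or -0.71 on the log2 scale both with normexp and on the spike-in scale. Map2k6, a kinase of p38, had -0.85, the p38 gene Mapk11 -0.65 and Map2k7, a kinase of JNK, -0.48. Chosen after their values were seen, the JNK genes Mapk8 and Mapk9 had -0.41 and -0.45. With normexp these 2 genes had -0.18 and -0.33, and on the spike-in scale 0.12 and 0.07. These are message levels and say nothing of the phosphorylated, active kinases.

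Known targets of AP-1 or Egr proteins went both ways. Of 14 measured, 2 reached 2-fold upwards and 3 downwards, 11 lay below 0, and the median was -0.23 (0.30 on the spike-in scale). The chemokine gene Ccl2 had 42.0 and 109 as means over 10 spots and was 2.31-fold higher, or 0.54 on the log2 scale with normexp. The 3 lower genes were the matrix metalloproteinase genes Mmp9 (2.20-fold, signals of 191 and 97.6 over 9 spots), Mmp14 (2.07-fold) and Mmp13 (2.02-fold). With normexp correction they had -0.76, -0.47 and -0.82, and on the spike-in scale -0.62, -0.53 and -0.50, so their direction held and their place past 2-fold did not. Timp1, an inhibitor of these proteases, had -0.62 and was named after its value was seen. Plaur was well above background in N2ICD alone. Its scaled ratio was 1.98-fold, the observed value of a dim spot and not a lower bound. Mmp3, Il6 and Lif did not stand well above background in either sample.

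Heat shock genes, which often respond to handling and stress along with the early factors, had a median of 0.18 over 9 genes, of which 7 lay above 0. Hspa1a, the inducible Hsp70, had signals of 88.5 and 215 and was 2.15-fold higher, or 0.79 on the log2 scale with normexp. Whether its probe also reads the near-identical Hspa1b was not tested. Hsph1 had 0.50, Hspb1 and Hsp90aa1 0.20 each, and Dnajb1, named after its value was seen, -0.03.

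**Figure D5:**
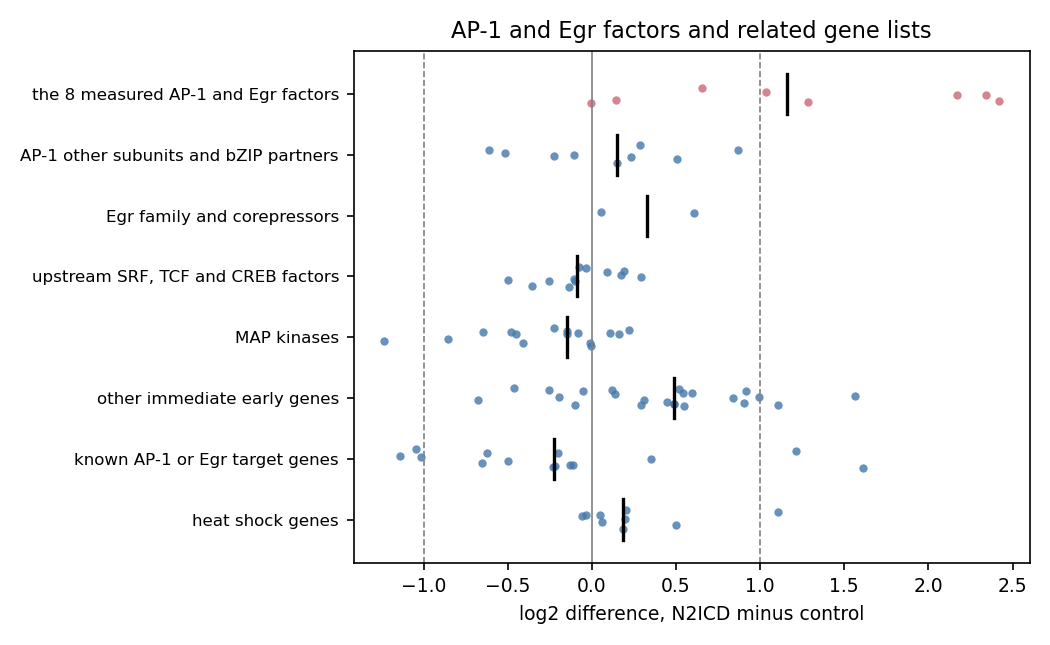
Log2 difference, N2ICD minus control, of each measured gene (points) in the 8 AP-1 and Egr factors (red) and 7 related lists (blue), with the median as a black bar and dashed lines at 2-fold. The factors' median is 1.16 and that of other immediate early genes 0.49, while the other medians lie between -0.23 and 0.33. All points shift up by 0.52 on the spike-in scale, which turns the negative medians positive.

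The early factors are made by many cell types, and the muscle pieces held several. In bulk tissue, fewer cells of a type and less RNA per cell cannot be told apart. Of the macrophage and leukocyte markers 8 of 9 on the array were measured, at a median of -0.34, and their summed level, in multiples of each array's 75th percentile, was 13.1 in control and 9.89 in N2ICD. Such a sum adds signals of different probes, so it is set only against the same sum in the other sample. Ptprc, which defines leukocytes, was not detected well above background. Of 7 neutrophil markers 5 were measured, at a median of 0.45. S100a8 had 0.64 at dim signals of 32.5 and 57.0, Ly6g 0.63 at 59.1 and 102.8, and S100a9 0.45 at 89.2 and 137. With normexp these 3 had 0.13, 0.24 and 0.27. Elane had -0.33 and Csf3r, named after its value was seen, 0.03. The summed level was 177 and 179.8. Nearly all of both sums came from the bright Csf3r probe, with signals of 29008 and 33348. Mpo and Retnlg were not well above background. The 7 endothelial markers had a median of -0.34 (sums of 48.2 and 38.4) and the 6 fibroblast markers -0.27 (594 and 482). The 6 smooth muscle and pericyte markers had 0.19 (61.3 and 67.1), the 5 erythroid markers -0.16 (241 and 226) and the 8 muscle fibre markers -0.24 (13904 and 11733). Of 6 satellite cell markers 4 were measured, at a median of 0.79 (61.7 and 159.9). Most of both sums came from Itga7, with signals of 8493 and 26853. Itga7, which fibres also make, was 2.81-fold higher, Sdc4 had 0.86 (0.52 with normexp) and Cdh15 0.73 (0.72 with normexp). Pax7, the defining factor, had 0.14, and Myf5 and Calcr were not well above background. The part of any cell type in the levels of the early factors was not tested.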

How the data were processed

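Total RNA was labelled with Cy3 and hybridised to 1 one-colour array per group, per the labels' protocols. The authors read the spots with Agilent Feature Extraction, version 10.10.1.1 in the file headers, which gave intensity values (the processed signal) with the background subtracted and trends across the array removed. Probes carry mm9 positions. The authors also deposited a table with a fold change (an unsigned ratio and its direction), an intensity and a log2 value on a scale of their own. The sources used here do not say how they computed it.

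Processed signals were put on the log2 scale and the 75th percentile over non-control spots (signals of 169 and 190.4) was subtracted for each array. Control spots and 215 outlier-flagged spots were dropped, and repeat spots of a probe averaged. A gene is the mean over probes that were well above background in both samples. A probe above background on 1 array gives a bound against the dim array's lowest signal so called. Where the probe's own signal there was higher, the observed ratio is given and is not a bound. Other genes were named through RefSeq accessions (GRCm38.p6). Named were all 10 factors, up to 4 genes per list with the largest difference, and any past 2-fold. Some genes that met this rule are not reported here. Genes said to be chosen after their values were seen fall outside this rule. The factors, lists and alternatives were chosen with earlier results of these data known. The steps were tested on simulated data. The analysis ran in Python 3.11.15 (pandas 2.3.3, numpy 2.4.6) and in limma 3.58.1 under R 4.3.3 (normexp with offset 50, quantile, loess).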

Additional observations from a re-analysis of the deposited data

How the results depend on the processing

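The count of 5 factors at least 2-fold higher held in 8 of the alternatives: median scaling, quantile normalization, loess on level, a 75th percentile over spots above background on both arrays, both looser filters on dim probes, the brightest probe and the authors' deposited folds. It was 3 with normexp background correction and 3 at a 4-fold threshold, and 6 on the spike-in scale and at 1.5-fold. The number at least 2-fold lower was 0 throughout. Of 13663 genes, 194 were at least 2-fold higher and 122 lower. For the same genes the counts were 81 and 43 with normexp, and 1059 and 22 on the spike-in scale. Other settings covered more genes. With probes above background on at least 1 array, 364 and 328 of 14642 genes passed. In the authors' deposited folds 379 and 316 of 14642 did, and with no filter on dim probes 835 and 968 of 27467. The cause of these differences was not tested. No called difference of a named gene turned its sign under any alternative run. Jund, which was not called, ran from -0.07 with quantile normalization to 0.51 on the spike-in scale. No paired analysis was possible because each group has 1 sample. Low signal limits Egr2, Fosb, Junb and Egr3.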
